A study of Homo sapiens with 4 samples.

Results

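The RNA levels of 10 Notch pathway genes were examined in the MYCN-amplified neuroblastoma line KELLY. The genes were the receptors NOTCH1, NOTCH2 and NOTCH3, the ligands DLL1, DLL3, JAG1 and JAG2, and the transcription factor genes HEY1, HES1 and HES6. They were picked by symbol from the 28063 genes counted, and all 10 were listed in every table. All cells had received a lentivirus for FLAG-tagged IWS1, a factor of transcription elongation by RNA polymerase II, and had been selected with 1 ug/ml puromycin. The labels give 10% FBS (fetal bovine serum) and 50% confluency for both groups. The WT group carried the wild-type protein and the M3 group a form with a disrupted TIM3, where a TIM is a short motif that binds the TFIIS N-terminal domain of partner proteins. Each group had 2 libraries of poly(A) RNA. The labels do not state the promoter of the vector, whether a group was 1 clone, whether endogenous IWS1 was kept, or whether the 2 libraries of a group came from separate cultures, so the spread behind each p-value is that between these libraries and may be technical.

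Notch signalling passes between neighbouring cells. A ligand of the Delta or Jagged type on one cell binds a Notch receptor on the next, the receptor is cut by an ADAM protease and then by gamma-secretase, and the freed intracellular part joins the DNA-binding protein RBPJ and a Mastermind coactivator to switch on genes such as HES1 and HEY1. These encode basic helix-loop-helix repressors that hold back proneural factors. HES6 is an atypical relative that opposes HES1 and favours neuronal differentiation, and DLL3 differs from the other Delta ligands in acting within the cell on Notch rather than as an activating signal at the surface.

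Read counts assigned to genes ran from 12289685 to 20962372 per library. IWS1 itself was counted at 370 and 393 CPM in WT and 596 and 598 CPM in M3, in the order of the library numbers; CPM are counts per 1e6 gene reads, scaled by TMM. Vector-derived and endogenous reads are not told apart, so the level says nothing of the form present. The groups thus differed in IWS1 RNA level as well as in the form introduced. The parts of level and form in any difference below cannot be told apart. Of 10 neuroblastoma markers fixed for the line, all had reads in these libraries, with MYCN at 2384, 2383, 2244 and 2256 CPM in WT 1, WT 2, M3 1 and M3 2. In bulk RNA, fewer cells of a type and less RNA per cell cannot be told apart.

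HEY1 was higher and HES6 was lower in M3 than in WT cells, and the other 5 Notch genes with enough reads for a test did not pass it. Both called genes encode basic helix-loop-helix factors. Of the 10 genes, 7 passed the filter on low counts and were tested, and 2 of these 7 were called (1 higher, 1 lower), at a p below 0.05 in edgeR's quasi-likelihood test, adjusted over all genes by Benjamini-Hochberg. Across the 14141 genes tested, 15.8% were called, 9.16% higher and 6.63% lower in M3. The M3 and WT libraries did not overlap in CPM for 6 of the 7 genes, beside 68.2% of all genes tested, so such separation was common in these libraries. The median log2 fold change of the 7 was -0.23, beside -0.0065 over all genes tested.

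**Figure D1:**
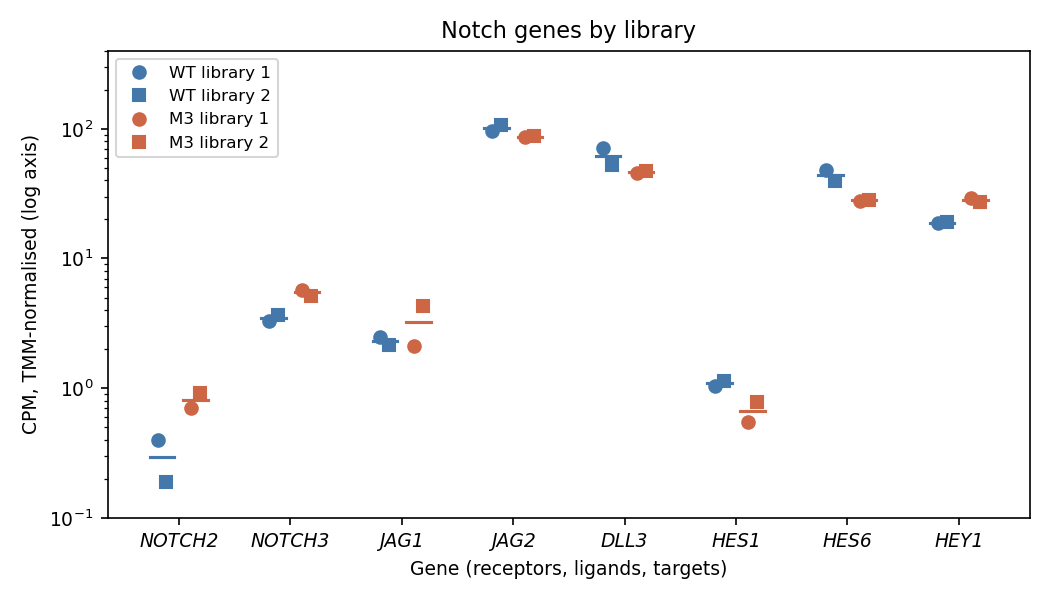
CPM (TMM-normalised, log axis) of the 8 Notch genes with reads in every library, with a point per library (circle for library 1, square for library 2, WT blue, M3 orange) and a line at the group mean. The M3 points of HEY1 lie at 29.0 and 27.3 CPM above WT at 18.6 and 19.2, while those of HES6 lie at 27.6 and 28.4 below WT at 47.9 and 39.7.

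Among the target genes, HEY1 encodes a repressor that Notch activates in many tissues. It was counted at 18.6 and 19.2 CPM in WT (233 and 404 reads) and at 29.0 and 27.3 CPM in M3 (373 and 385 reads). Both M3 libraries were above both WT libraries, and the gap between groups was far wider than that within either group. HEY1 rose 1.49-fold, from 18.9 ± 0.375 to 28.2 ± 1.23 CPM (SD, n = 2), a log2 fold change of 0.57 ± 0.14 (SE; adjusted p = 0.0353 by edgeR; 95% interval 0.25 to 0.90). With the trends of each library on the length and GC content of transcripts removed, the log2 fold change was 0.66 ± 0.13 (edgeR adjusted p = 0.0175), and 1 of the 7 genes, HEY1, was called there, beside 4.92% of 13702 genes. The call was lost without M3 library 1 (0.53, adjusted p = 0.322) and without M3 library 2 (0.62, adjusted p = 0.139).

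HES6 (chromosome 2, 238238267 to 238240038, GRCh38) had 599 and 836 reads in WT and 355 and 401 in M3, which gave 47.9 and 39.7 CPM in WT beside 27.6 and 28.4 CPM in M3. Both M3 libraries were below both WT libraries, and WT library 1 was the highest of the 4. HES6 fell from 43.8 ± 5.83 to 28.0 ± 0.561 CPM (SD, n = 2), a log2 fold change of -0.64 ± 0.15 (SE; adjusted p = 0.0311 by edgeR; 95% interval -0.98 to -0.30). The HES6 transcript is short and rich in GC (1600 nt, 68.4% GC, beside 2296 nt and 47.3% for HEY1). Once the length and GC trends were removed its log2 fold change was -0.17 ± 0.11, which did not pass (edgeR adjusted p = 0.382). For every gene, that fit removes any M3 against WT difference that follows length or GC, whether technical or from the cells. These cannot be told apart here. The call was also lost with total-count scaling (-0.52, adjusted p = 0.0584) and without M3 library 1 (-0.62, 0.232) or M3 library 2 (-0.66, 0.118).

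HES1, the best known Notch target, was near the limit of detection. It had 13 and 24 reads in WT and 7 and 11 in M3, or 1.04 and 1.14 CPM in WT beside 0.545 and 0.780 CPM in M3. The M3 libraries lay below the WT libraries, but the log2 fold change of -0.71 ± 0.50 (SE) had a 95% interval of -1.84 to 0.42 and an adjusted p of 0.329 by edgeR, so a change in either direction was not detectable at this depth. The 250 bases before the start of HES1, the best known target, and of HES6, the more abundant gene here, are shown. Both are from RefSeq (GRCh38.p14), 5′ to 3′ on the strand of the gene: HES1 at chr3:194135898-194136147 on the plus strand and HES6 at chr2:238240039-238240288 on the minus strand. Capitals mark matches, on either strand, to the RBPJ core TGGGAA, the E-box CAGCTG bound by proneural factors, the E-box CACGTG bound by MYC proteins and the N-box CACNAG bound by HES proteins.
HES1: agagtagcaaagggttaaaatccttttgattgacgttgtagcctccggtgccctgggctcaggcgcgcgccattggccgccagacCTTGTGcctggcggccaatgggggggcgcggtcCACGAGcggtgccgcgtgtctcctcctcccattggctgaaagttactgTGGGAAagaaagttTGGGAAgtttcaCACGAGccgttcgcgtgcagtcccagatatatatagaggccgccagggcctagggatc
HES6: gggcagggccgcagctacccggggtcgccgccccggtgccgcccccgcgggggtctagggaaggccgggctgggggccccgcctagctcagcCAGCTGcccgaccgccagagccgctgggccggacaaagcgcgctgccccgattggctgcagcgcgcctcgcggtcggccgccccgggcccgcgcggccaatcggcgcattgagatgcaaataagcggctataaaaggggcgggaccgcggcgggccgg

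The HES1 window held 2 matches to the RBPJ core, starting 84 and 70 bases before the gene start on the gene's own strand, and 3 to the N-box. That of HES6 held 1 match to CAGCTG, starting 158 bases before the start, and none to the other motifs. Among 35116 RefSeq promoters cut to the same length, 20.8% held the RBPJ core, 32% the N-box, 14% CAGCTG and 6.34% CACGTG. Of the other genes with an entry, NOTCH3 had 1 N-box match, and NOTCH1, NOTCH2, JAG1 and JAG2 had no match to any of the 4 motifs. DLL1, DLL3 and HEY1 had no entry among these promoters, so no sequence of theirs was searched. A match describes letters in a window and does not show binding.

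All 3 receptors were scarce. NOTCH3 (chromosome 19, 15159038 to 15200995) was the most abundant of them per length, at 0.400 ± 0.0305 CPM per kb of transcript in WT and 0.631 ± 0.0477 in M3 (SD, n = 2). It had 41 and 77 reads in WT and 74 and 73 in M3, or 3.28 and 3.65 CPM in WT beside 5.76 and 5.17 CPM in M3. Both M3 libraries were above both WT libraries. The log2 fold change of NOTCH3 was 0.65 ± 0.25 (SE; 95% interval 0.07 to 1.22), which did not pass (edgeR adjusted p = 0.105, unadjusted p = 0.0313), nor did it pass in any of its 15 alternative fits, where it ran from 0.54 to 0.76.

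NOTCH2 had 5 and 4 reads in WT and 9 and 13 in M3 and stayed under the count filter. The M3 libraries, at 0.701 and 0.922 CPM, lay above WT at 0.400 and 0.190 CPM. The ratio of summed reads, 22 in M3 against 9 in WT, was 3.04 after scaling, with an exact 95% interval of 1.35 to 7.51 that covers counting error only. Fitted without a count filter NOTCH2 had a log2 fold change of 1.51 ± 0.85 (edgeR adjusted p = 0.234). Near-identical NOTCH2NL copies can share its reads, and the NOTCH2NL row held 0, 0, 0 and 1 reads in WT 1, WT 2, M3 1 and M3 2. NOTCH1, the receptor best known from T-cell leukaemia, had 0 reads in WT 1, WT 2 and M3 1 and 2 reads in M3 2. A count of 0 allows up to 3 reads, which is 0.240, 0.142 and 0.234 CPM in those libraries, and no fold is given.

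The ligands split into 2 abundant and 2 scarce genes. JAG2 (chromosome 14, 105140995 to 105168776), a Jagged ligand, had 1204 and 2259 reads in WT and 1102 and 1235 in M3, or 96.3 and 107 CPM in WT beside 85.8 and 87.5 CPM in M3. The M3 libraries were the lower ones by a narrow gap, with a log2 fold change of -0.23 ± 0.12 (SE; 95% interval -0.51 to 0.05; edgeR adjusted p = 0.209). DLL3 (chromosome 19, 39498947 to 39508469) had 883 and 1108 reads in WT and 587 and 672 in M3, or 70.6 and 52.6 CPM in WT beside 45.7 and 47.6 CPM in M3. WT library 1 stood well above the other 3 libraries, and the groups did not overlap. Its log2 fold change of -0.40 ± 0.16 (SE; 95% interval -0.77 to -0.03) did not pass (edgeR adjusted p = 0.118). It was -0.41 and passed without a count filter (edgeR adjusted p = 0.0424), where 3945 of 20290 genes were called. Without WT library 1 it was -0.18 (adjusted p = 0.273) and without WT library 2 it was -0.60 (adjusted p = 3.07e-06, a fit that takes its spread from the M3 pair). With the length and GC trends removed DLL3 was at -0.03 ± 0.11 (adjusted p = 0.887). JAG2 passed without WT library 1 (-0.31, edgeR adjusted p = 0.0156), again with the spread taken from the M3 pair.

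JAG1, the ligand mutated in Alagille syndrome, had 31 and 45 reads in WT and 27 and 61 in M3. Its CPM of 2.10 and 4.32 in the M3 libraries enclosed the WT values of 2.48 and 2.14, so the groups overlapped, with a log2 fold change of 0.49 ± 0.39 (SE; 95% interval -0.40 to 1.39; edgeR adjusted p = 0.391). The sign turned without M3 library 2 (-0.13, adjusted p = 0.918). DLL1 had 5 reads, all in WT library 2. The other 3 libraries had 0, which allows up to 0.240 CPM in WT 1, 0.234 in M3 1 and 0.213 in M3 2, close to the 0.237 CPM of WT 2. No difference in DLL1 was detectable at this depth.

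**Figure D2:**
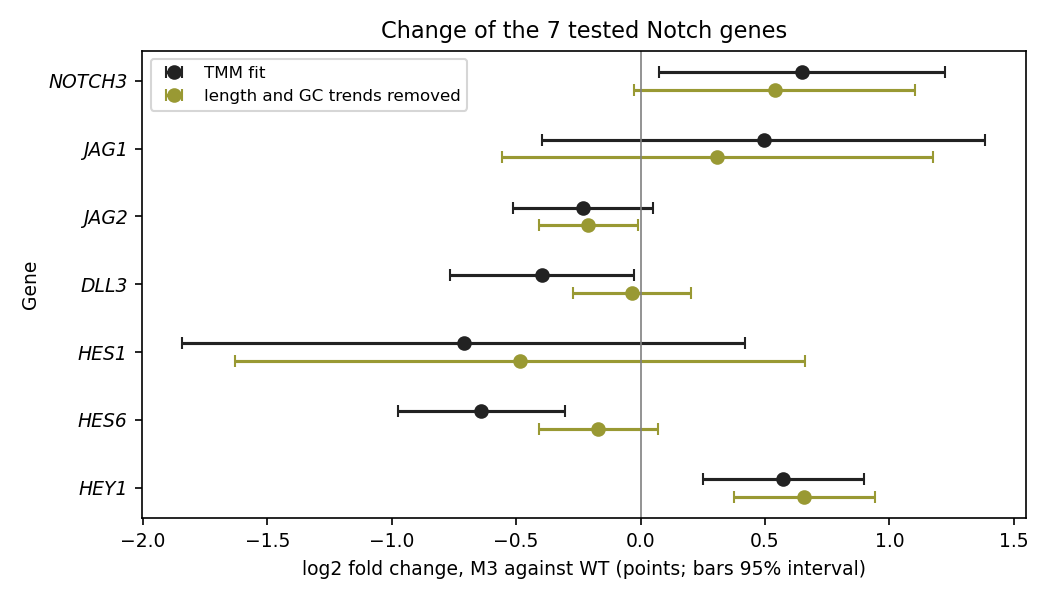
Log2 fold change of M3 against WT with 95% intervals for the 7 tested Notch genes, from the TMM fit (black) and after removal of length and GC trends (olive). HEY1 lies at 0.57 and 0.66 in the 2 fits, while HES6 moves from -0.64 to -0.17 and DLL3 from -0.40 to -0.03.

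On the scale of CPM per kb of transcript, which allows levels to be set side by side, the order in WT was HES6 (27.4 ± 3.65, SD, n = 2), DLL3 (26.4 ± 5.48), JAG2 (17.4 ± 1.32), HEY1 (8.23 ± 0.163), HES1 (0.690 ± 0.0443), NOTCH3 (0.400 ± 0.0305) and JAG1 (0.389 ± 0.0410), followed by DLL1, NOTCH2 and NOTCH1, none above 0.0748 in either library. The neighbours HES6 and DLL3 overlapped in WT, as did NOTCH3 and JAG1, while DLL3, JAG2, HEY1 and HES1 were apart from each other. In M3 the order was DLL3 (20.0 ± 0.590), HES6 (17.5 ± 0.351), JAG2 (14.9 ± 0.214), HEY1 (12.3 ± 0.536), NOTCH3 (0.631 ± 0.0477), JAG1 (0.541 ± 0.265) and HES1 (0.420 ± 0.105). The 4 abundant genes did not overlap with each other in M3, whereas JAG1 overlapped with both NOTCH3 and HES1. The 4 thus lay closer together in M3 on this scale: the WT means spanned 8.23 to 27.4 CPM per kb and the M3 means 12.3 to 20.0. The scale does not remove the length and GC trends. With those removed, the log2 fold changes of HES6 (-0.17) and DLL3 (-0.03) did not pass. In WT, library 1 was the higher for both, with HES6 at 30.0 and 24.8 and DLL3 at 30.3 and 22.5 CPM per kb.

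**Figure D3:**
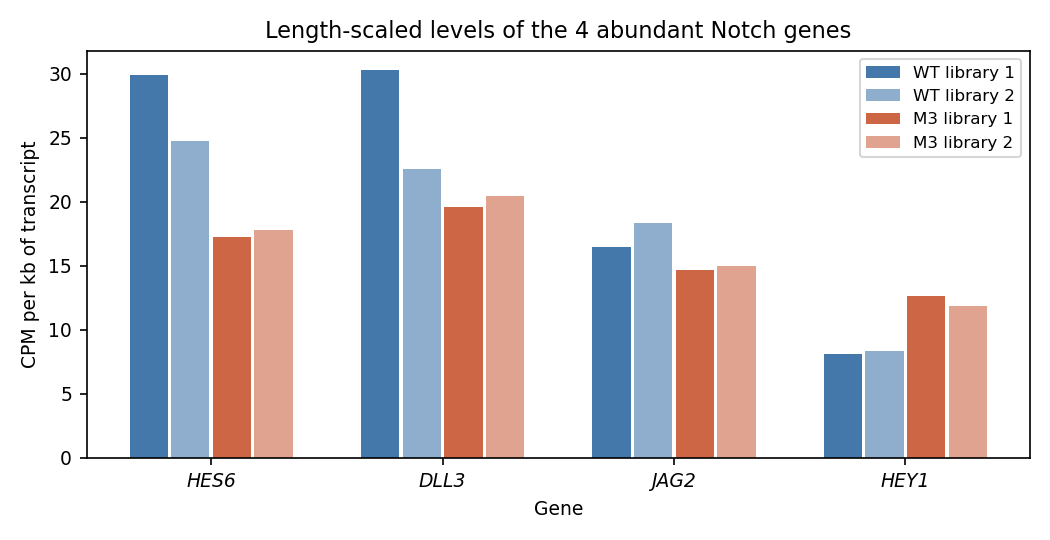
Levels in CPM per kb of transcript of HES6, DLL3, JAG2 and HEY1, with a bar for each library (WT blue, M3 orange, library 2 paler) from an axis that starts at 0. HEY1 bars are at 8.12 and 8.35 in WT and 12.6 and 11.9 in M3, and HES6 bars at 30.0 and 24.8 in WT and 17.3 and 17.8 in M3.

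The genes nearest in pattern to each called gene were those with the smallest Euclidean distance over the 4 libraries, in centred log2(CPM + 0.5), among genes that averaged 5 CPM or more. For HEY1 they were the ubiquitin-conjugating enzyme gene UBE2D1 (distance 0.0299), ELMOD2 (0.0353) and STRN3 (0.0373). UBE2D1 was at 10.8 and 11.2 CPM in WT beside 17.4 and 16.1 CPM in M3. For HES6 they were PLEKHO1 (0.00998), the importin pseudogene IPO5P1 (0.0199) and C8orf59 (0.0228). PLEKHO1 was at 119 and 99.6 CPM in WT beside 69.7 and 71.5 CPM in M3, and was, like HES6, highest in WT library 1.

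The rest of the pathway was read from 7 lists of 98 genes, of which 78 were tested. Of these 78, 7 were higher and 11 lower in M3, which is 23.1% beside the 15.8% of all genes tested, and their median log2 fold change was 0.04 beside -0.0065 over all genes. After removal of the length and GC trends 6 of the 78 were called (7.69%, beside 4.92%). Of the 16 called genes named by the rule, 14 did not pass without M3 library 1 (adjusted p between 0.0534 and 0.415), 10 lost the call without M3 library 2 and 10 with total-count scaling. Among the other receptors and ligands, 4 of 8 were tested and none passed. NOTCH4, the receptor best known from endothelium, had 1 read, in M3 library 1. DLK1, a soluble or membrane-bound relative of the Delta ligands, was the most abundant at 2348 and 1854 CPM in WT beside 1560 and 1728 CPM in M3. The M3 libraries were lower, but the log2 fold change of -0.35 ± 0.18 (SE) did not pass (edgeR adjusted p = 0.182). CNTN1, an adhesion protein that can bind Notch, was at 79.5 and 120 CPM in WT beside 150 and 141 CPM in M3 (log2 fold change 0.54 ± 0.18, SE; edgeR adjusted p = 0.0713). CNTN1 passed with DESeq2 (adjusted p = 0.0270), without a count filter (0.00280) and without WT library 1 (0.27, 0.0251) or WT library 2 (0.87, 8.55e-15), and was at 0.05 with the length and GC trends removed (0.847).

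Of 12 further target genes of the HES, HEY and feedback type, 7 were tested and 1 was lower. It was NRARP, a target that feeds back on the Notch intracellular complex, at 37.1 and 32.4 CPM in WT beside 19.8 and 21.0 CPM in M3 (log2 fold change -0.77 ± 0.15, SE; edgeR adjusted p = 0.0224). Both M3 libraries were well below both WT libraries. The value was -0.33 with the length and GC trends removed and did not pass there (adjusted p = 0.128). The median of the 7 was 0.06. HEYL, the relative of HEY1 with the next highest count, was at 17.8 and 24.0 CPM in WT beside 23.0 and 20.8 CPM in M3, where the groups overlapped (0.06 ± 0.18, edgeR adjusted p = 0.837; named after its values were seen).

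All 15 genes of receptor processing and glycosylation were tested, and 2 were lower and none higher, with a list median of -0.10. Both encode Fringe enzymes, which add sugars to the Notch receptor and shift its choice of ligand. LFNG fell from 56.6 and 61.2 CPM in WT down to 33.1 and 37.7 CPM in M3 (log2 fold change -0.73 ± 0.14, SE; edgeR adjusted p = 0.0224). RFNG fell from 33.6 and 30.9 CPM to 21.0 and 20.1 (-0.65 ± 0.14; edgeR adjusted p = 0.0287), and 21.6% of its exonic bases lie in the exons of GPS1 on the other strand, so its count is uncertain. With the length and GC trends removed LFNG was at -0.41 (adjusted p = 0.0647) and RFNG at -0.23 (0.308), and neither passed.

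Of 16 genes of trafficking and ubiquitin ligases, 14 were tested, 2 higher and 2 lower, with a median of 0.11. The largest change of all pathway genes tested was that of MIB1, the ligase that marks Delta and Jagged ligands for the endocytosis that activates the receptor. MIB1 rose from 49.8 and 74.2 CPM in WT up to 151 and 134 CPM in M3, with a log2 fold change of 1.19 ± 0.19 (SE; edgeR adjusted p = 0.0198). It was at 0.49 with the length and GC trends removed and still passed (adjusted p = 0.0176). AAK1, a kinase of clathrin-coated vesicles, rose by 0.59 on the log2 scale (adjusted p = 0.0473), the ligase gene DTX3 was lower (-0.60, 0.0330), as was the endocytic adaptor EPN1 (-0.54, 0.0432). None of these 3 passed with the trends removed, where AAK1 was at 0.04, EPN1 at -0.96 and DTX3 at -0.39 (edgeR adjusted p = 0.0548). The EPN1 value is uncertain. Its SE was 0.32 there beside 0.15 in the TMM fit, and the transcript used for it was 16219 nt long.

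All 12 genes of the RBPJ complex and its coactivators were tested, and 1 was higher, with a median of 0.37. It was the acetyltransferase CREBBP, at 94.6 and 121 CPM in WT beside 157 and 147 CPM in M3 (0.50 ± 0.14, SE; edgeR adjusted p = 0.0495), which did not pass with the trends removed (0.25, 0.105). RBPJ itself, named after its values were seen, was at 139 and 153 CPM in WT beside 158 and 148 CPM in M3, where the groups overlapped (0.06 ± 0.12, edgeR adjusted p = 0.730). With the trends removed RBPJ had a log2 fold change of -0.49 (adjusted p = 0.0106). The transcripts of this list were long, with a median of 5688 nt beside 3370.5 nt for all genes tested, and the list median with the trends removed was 0.16.

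Of 18 corepressor symbols, 14 were tested, 2 higher and 2 lower, with a median of -0.00013. NCOR1, a scaffold for histone deacetylases (0.55 ± 0.16, SE), and the demethylase gene KDM5A (0.53 ± 0.14) were higher, and CTBP1 (-0.65 ± 0.17) and AES, a short Groucho relative (-0.53 ± 0.14), were lower (edgeR adjusted p = 0.0482, 0.0405, 0.0402 and 0.0411). None of the 4 passed with the trends removed. There CTBP1 kept most of its size (-0.53, adjusted p = 0.0545), AES was at -0.17 (0.274), NCOR1 at 0.08 and KDM5A at 0.0061. In the annotation, 13.3% of the exonic bases of CTBP1 and 10.6% of those of AES lie in genes on the other strand.

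Of 17 proneural and neuroendocrine factors, the genes that HES and HEY proteins restrain or that act beside them, 12 were tested, 2 higher and 4 lower, with a median of -0.10. ID3 and ID1 encode inhibitors that bind helix-loop-helix factors and keep them off DNA. ID3 fell from 171 and 137 CPM in WT down to 81.7 and 85.7 CPM in M3 (log2 fold change -0.88 ± 0.14, SE; edgeR adjusted p = 0.0198). ID1 was also lower (-0.82 ± 0.23, 0.0473), and TCF4, an E protein that pairs with proneural factors, was higher (0.77 ± 0.14, 0.0224). ID3 kept its call with the trends removed (-0.46, edgeR adjusted p = 0.0151), while ID1 (-0.37, 0.246) and TCF4 (0.12, 0.451) did not. MIB1 passed at 0.05 with each library left out in turn and under every other scaling, filter and test run, though not at 0.01.

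**Figure D4:**
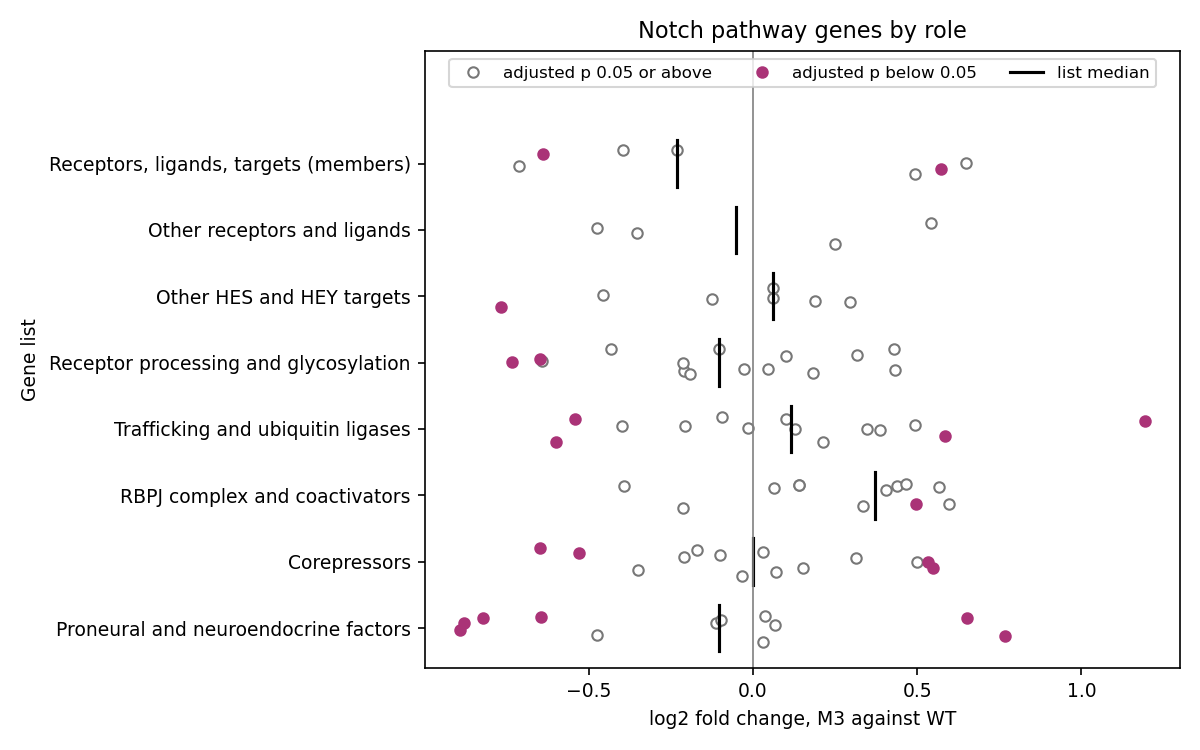
Log2 fold change of M3 against WT for each tested gene of the 10 Notch genes and of 7 further pathway lists, with filled points for an edgeR adjusted p below 0.05 and a bar at the list median. MIB1 is the point farthest right at 1.19, and ID3 and ID1 lie among the lowest of the last list at -0.88 and -0.82.

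Markers of other cell types summed to far less than those of neuroblastoma. The summed level of 6 fibroblast markers was 94.8 and 94.8 CPM in WT beside 125 and 124 CPM in M3. PDGFRB made up most of it, at 67.7 and 88.0 CPM in WT beside 111 and 110 CPM in M3, and the other 5 summed to 27.1 and 6.79 CPM in WT beside 14.1 and 14.4 CPM in M3, which overlapped. The 5 epithelial markers summed to 6.96 and 4.60 CPM in WT beside 3.89 and 2.91 CPM in M3, most of it KRT19. The sum of 8 Schwann and glial markers was 37.5 to 40.0 CPM over the 4 libraries, with S100B and CDH19 at 0 in all, that of 5 endothelial markers 4.08 and 3.65 CPM in WT beside 3.58 and 3.26 CPM in M3, and that of 4 haematopoietic markers 1.56 to 3.08 CPM, with CD3E at 0 and nearly all of the sum from CD68, of whose exonic bases 85.8% lie in other genes. The 8 mesenchymal-state markers summed to 144 to 185 CPM. The neuroblastoma markers summed to 6460 and 6198 CPM in WT beside 5054 and 5088 CPM in M3. Of the 10, 4 were called lower and none higher, while 6.63% of all genes tested were called lower. With the length and GC trends removed 2 of the 10 were called lower, beside 4.92% of all genes called in either direction. Of the 3 fibroblast markers tested, none was called in the TMM fit and 1 was called higher with those trends removed. Without the most abundant marker of each list, the fibroblast, epithelial and endothelial sums overlapped between the groups. The Schwann and glial sum, at 5.21 and 6.24 CPM in M3, was below both WT libraries. The mesenchymal-state sum was lower in M3 by a narrow gap, with M3 1 at 45.9 CPM beside WT 1 at 46.0. The haematopoietic sum was 0 in both M3 libraries, but PTPRC and HBB had at most 1 read each in any WT library. Separation of the groups was common, at 68.2% of all genes tested, so these lower sums show little. The neuroblastoma sum (without MYCN) was 4077 and 3816 CPM in WT beside 2810 and 2832 CPM in M3. The part of these sums in the changes of HEY1 and HES6 was not tested.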

How the data were processed

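The authors deposited raw counts of reads for each gene symbol, without normalisation, in 1 table per library. The submitters' processing notes name the hg38 build, the aligner HISAT2 (2.1.0), HTSeq and DESeq2. Annotation and strand setting are not stated, so antisense reads cannot be told apart. The 5 summary values of each table were left out; reads assigned to no feature made up 23.2% to 27.5% of counted reads.

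Counts were fitted with edgeR 4.0.16 (R 4.3.3): filterByExpr, TMM, robust quasi-likelihood F test, adjusted p below 0.05. The standard error is the log2 fold change over the root of F. Alternatives were DESeq2 1.42.0, limma-voom (limma 3.58.1), other scalings and filters, a replicate block, each library left out (the lone sample borrows the spread of the other group), and offsets from splines with 5 degrees of freedom on transcript length and GC content. The latter, like CPM per kb, used the longest coding transcript of GENCODE 29, which need not be the one expressed. The offsets were fitted to each library without its group, so they also take out a group difference that follows length or GC. Positions are from RefSeq (GRCh38.p14). On simulated counts of 14141 genes, M3 against WT, 69 of 100 log2 changes of 1 and 98 of 100 of 2 were recovered. The simulation gave all genes a common spread and held no length or GC trends. Changes as small as those of HEY1 and HES6 were not simulated, so their recovery is not known.

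Members and lists were chosen with earlier results of these data known. Named were all 10 genes, per list up to 4 called genes by size of change or else the 2 of highest CPM, and the 3 genes nearest in pattern to each called gene. One gene that the rule names is not reported here. The symbol TLE5 was not found, and AES is its older name. Intervals from reads and limits at 0 cover counting error only.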

Additional observations from a re-analysis of the deposited data

Results flagged for a closer look

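Reads assigned to no annotated feature, which enter no comparison here, made up 27.5% of counted reads in M3 library 1 and 25.6% in M3 library 2, above the 23.3% and 23.2% of WT libraries 1 and 2.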

How the results depend on the processing

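The count of genes called, 2232 as reported, was 1120 (856 higher, 264 lower) with total-count scaling, 3945 of 20290 tested without a count filter, 674 (248 higher, 426 lower) with the length and GC trends removed, 995 with those trends removed and the replicate block, and 0 at an adjusted p of 0.01, where edgeR's smallest adjusted p was 0.0185, with 5078 genes under 0.05 unadjusted. Total-count scaling moved the all-gene median on the log2 scale from -0.0065 to 0.11. With a library left out the count ran from 359 (without M3 library 1) to 6735 (without WT library 2), with 3526 without WT library 1 and 1064 without M3 library 2. Of the 10 Notch genes, 2 were called, 1 (HEY1) with total-count scaling and with the trends removed, the latter also with the replicate block (1), 0 at 0.01, and 0 to 3 with a library left out. Without a count filter 3 of the Notch genes were called, with DLL3 added to HEY1 and HES6. HEY1 and HES6 kept their signs in every fit, from 0.53 to 0.69 and from -0.78 to -0.17. JAG1 changed sign without M3 library 2 (-0.13), and ran up to 0.91 without M3 library 1. No other gene named by the rule from the pathway lists changed sign. The replicate block gave 2315 calls, 2 of them among the Notch genes. It ended the calls of CREBBP and AES and added CNTN1 (0.57, edgeR adjusted p = 0.0259). With the trends also removed CTBP1 (-0.54, 0.0200), DTX3 (-0.39, 0.0427) and LFNG (-0.41, 0.0441) passed. Over genes, the difference of library 1 from library 2 in WT was correlated with that in M3 at -0.187. Among genes of at least 5 CPM the correlation was -0.343. No positive correlation of same-numbered libraries was thus seen, but whether they were prepared together is not stated. A crossed pairing, added after seeing the data, gave 5314 calls, 3 of them among the Notch genes. Depth limits NOTCH1, NOTCH2, DLL1, HES1 and JAG1, the last 2 with no adjusted p from DESeq2.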
